A study of Mus musculus with 48 samples.

Results

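The 7 genes Adamdec1, Enpp2, Gfra2, Vipr1, Adcy4, Asb2 and Rims4 were followed through bulk RNA sequencing of liver macrophages from male C57BL/6 mice given acetaminophen (APAP), a painkiller that kills hepatocytes at high dose. They are 7 of the 54735 genes in the count files, and all 7 passed the filter on low counts with the 17080 genes tested. They were selected on their levels, lower in LAM-like Kupffer cells than in Kupffer cells at 36 h or 48 h, so those values are described here without a test. The groups are LAM-like Kupffer cells (LAM-like KCs) 36 and 48 h after APAP, Kupffer cells (KCs) 6, 12, 24, 36, 48, 72, 96, 120 and 168 h after APAP, and KCs 0 and 24 h after PBS, the saline control. Each APAP group had 4 libraries and each PBS group had 2, for 48 libraries in 13 groups with 1.59e+07 to 2.61e+07 counted reads each. The labels name no modified allele in any group. The labels give no markers by which LAM-like KCs were isolated, and do not say whether the libraries of a group came from separate animals, so p-values measure the spread between these libraries, which may be technical.

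KCs are the macrophages resident in the liver sinusoids, where they clear particles, old red cells and debris. Lipid-associated macrophages (LAMs) are a state seen where macrophages take up lipid and dead cells, marked by Trem2. Adamdec1 encodes a secreted metalloprotease of the ADAM family, and Enpp2 encodes autotaxin, a secreted enzyme that makes the signalling lipid lysophosphatidic acid. Gfra2 is the membrane-anchored receptor for neurturin, which in neurons signals together with Ret, and Vipr1 is a receptor for vasoactive intestinal peptide (VIP) that acts through the stimulatory G protein Gs. Adcy4 is an adenylyl cyclase, one of the enzymes that make cyclic AMP (cAMP) downstream of such receptors. Asb2 is the part of a Cul5 ubiquitin ligase that binds its targets, filamins among them, and Rims4 is a small member of the RIM family, scaffolds of vesicle release at synapses.

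The labelled cell types were checked against marker genes. All 14 Kupffer cell markers listed were detected, and their summed level was 22359 to 24189 CPM (counts scaled to a common library size) in LAM-like KCs and 34987 to 36781 CPM in KCs at 36 h. The summed level of the 10 LAM markers was 9287 to 13220 CPM in LAM-like KCs and 5404 to 6518 CPM in KCs at that time. A high LAM sum was not particular to the LAM-like groups. It was 9139 to 11749 CPM in KCs at 12 h, 5956 to 11643 CPM at 24 h and 6979 to 14371 CPM at 72 h. Of the 12 monocyte and neutrophil markers, 11 passed the filter. They summed to 94.3 to 151 CPM in LAM-like KCs and 370 to 451 CPM in KCs at 36 h. Hp is on this list and also on the hepatocyte list used below. Sample numbers in the file headers were cut here into 2 sets, of 25 and 23 libraries. LAM-like KCs and KCs of each time had 2 libraries in each set, except KCs at 12 h. Of these, replicates 1, 2 and 3 lay in the first set and replicate 4 alone in the second. PBS 24 h lay wholly in the first set and PBS 0 h wholly in the second. Within a set a comparison with PBS therefore also changes the control.

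Promoter sequence was at hand for 3 of the 7 genes, Asb2, Vipr1 and Adcy4, from RefSeq on build GRCm38.p6. Of these, Vipr1 and Adcy4 were called lower than PBS in KCs at 24 h and Asb2 was not. Adamdec1 and Enpp2 were also called lower then, but their promoter sequence was not at hand. Each run is the 250 bases before an annotated start, written 5′ to 3′ on the strand of the gene, with matches to the motifs searched in capitals. Asb2 has 2 annotated starts on the minus strand, with windows chr12:103356002-103356251 and chr12:103338391-103338640. The Vipr1 window is chr9:121642466-121642715 on the plus strand and the Adcy4 window is chr14:55784073-55784322 on the minus strand. GENCODE M21, used below for gene positions, places Adcy4 at chr14:55769057-55784095. By that annotation the last bases of the Adcy4 window lie inside the gene.
Asb2 first start: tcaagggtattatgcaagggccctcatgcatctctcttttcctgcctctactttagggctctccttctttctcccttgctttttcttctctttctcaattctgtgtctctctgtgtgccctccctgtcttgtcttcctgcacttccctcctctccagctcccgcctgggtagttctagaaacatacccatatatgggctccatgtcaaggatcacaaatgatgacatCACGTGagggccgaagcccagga
Asb2 second start: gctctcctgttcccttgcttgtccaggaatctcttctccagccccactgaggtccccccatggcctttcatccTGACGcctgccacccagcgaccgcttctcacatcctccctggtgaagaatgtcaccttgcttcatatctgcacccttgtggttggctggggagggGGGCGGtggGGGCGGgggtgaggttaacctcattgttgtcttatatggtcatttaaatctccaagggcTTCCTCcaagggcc
Vipr1: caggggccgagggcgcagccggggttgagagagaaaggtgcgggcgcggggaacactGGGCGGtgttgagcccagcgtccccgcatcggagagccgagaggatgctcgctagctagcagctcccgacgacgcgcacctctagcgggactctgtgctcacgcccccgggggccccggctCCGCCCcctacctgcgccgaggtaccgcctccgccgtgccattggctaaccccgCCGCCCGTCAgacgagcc
Adcy4: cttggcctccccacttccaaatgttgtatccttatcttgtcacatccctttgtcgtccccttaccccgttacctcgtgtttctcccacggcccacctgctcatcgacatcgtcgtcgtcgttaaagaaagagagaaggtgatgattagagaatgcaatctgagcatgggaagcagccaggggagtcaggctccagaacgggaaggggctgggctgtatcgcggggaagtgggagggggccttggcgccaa
The motifs were searched on both strands. They were the cAMP response element half-site TGACG, the E-box CACGTG, the GC box GGGCGG, the AP-1 site TGANTCA, the PU.1 core GAGGAA and the MAF half-site TGCTGA. The first Asb2 window held 1 E-box, starting 23 bases before the start site. The second held a TGACG at 177 bases, GC boxes at 82 and 73 bases, and a PU.1 core, on the other strand, at 14 bases before its start. The Vipr1 window held 3 GC boxes and, at 13 bases before the start, a TGACG on the other strand that shares 1 base with a GC box. The Adcy4 window held no match to these letters. Vipr1 was also the window richest in G and C, at 72.8%, against 56.0% for Adcy4 and 50% and 57.6% for the Asb2 windows. Of 32536 mouse promoter windows of 250 bases, 17.9% held TGACG, 6.04% CACGTG, 33% GGGCGG, 6.73% TGANTCA, 23.4% GAGGAA and 16.1% TGCTGA. The matches describe these letters only, and binding was not measured.

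Levels in KCs after PBS spanned a wide range. Per kilobase of exon, Adamdec1 averaged 108.0 RPKM (reads scaled to library size and exon length) over the 4 PBS libraries and Adcy4 averaged 59.1 RPKM. Gfra2 averaged 16.6 RPKM and Asb2 13.6 RPKM. Vipr1 at 3.16 RPKM, Rims4 at 2.85 RPKM and Enpp2 at 2.80 RPKM were the lowest. In CPM, the PBS libraries gave 265.0 ± 26.4 for Adamdec1, 276.0 ± 33.7 for Adcy4, 58.8 ± 11.7 for Gfra2, 48.0 ± 5.0 for Asb2, 18.3 ± 8.42 for Vipr1, 14.1 ± 2.65 for Rims4 and 16.2 ± 6.28 for Enpp2 (SD, n = 4). Between PBS groups no member passed the test (edgeR's quasi-likelihood test with Benjamini-Hochberg adjustment; 0.0293% of all genes were called lower and 0.0234% higher in PBS 24 h). At an unadjusted p below 0.05 there was 1 member, Enpp2, and DESeq2 called 0. Enpp2 was at 21.7 and 21.4 CPM in PBS 24 h libraries and 10 and 11.5 CPM in PBS 0 h libraries, a log2 difference of 1.0 ± 0.48 (SE; adjusted p = 0.737). Vipr1 was at 28.4 and 22.1 CPM in PBS 24 h libraries and 10.4 and 12.5 CPM in PBS 0 h libraries, a log2 difference of 1.14 ± 0.62 (adjusted p = 0.77). Gfra2 was at 75.5 and 58.3 CPM in PBS 24 h libraries and 52.2 and 49.1 CPM in PBS 0 h libraries. Its log2 difference was 0.40 ± 0.44 (adjusted p = 0.897, edgeR). For Enpp2, Vipr1 and Gfra2 the PBS groups did not overlap. With 2 libraries in each group, and no share over all genes at hand, nothing is read from that. The choice of control bears on what follows.

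**Figure D1:**
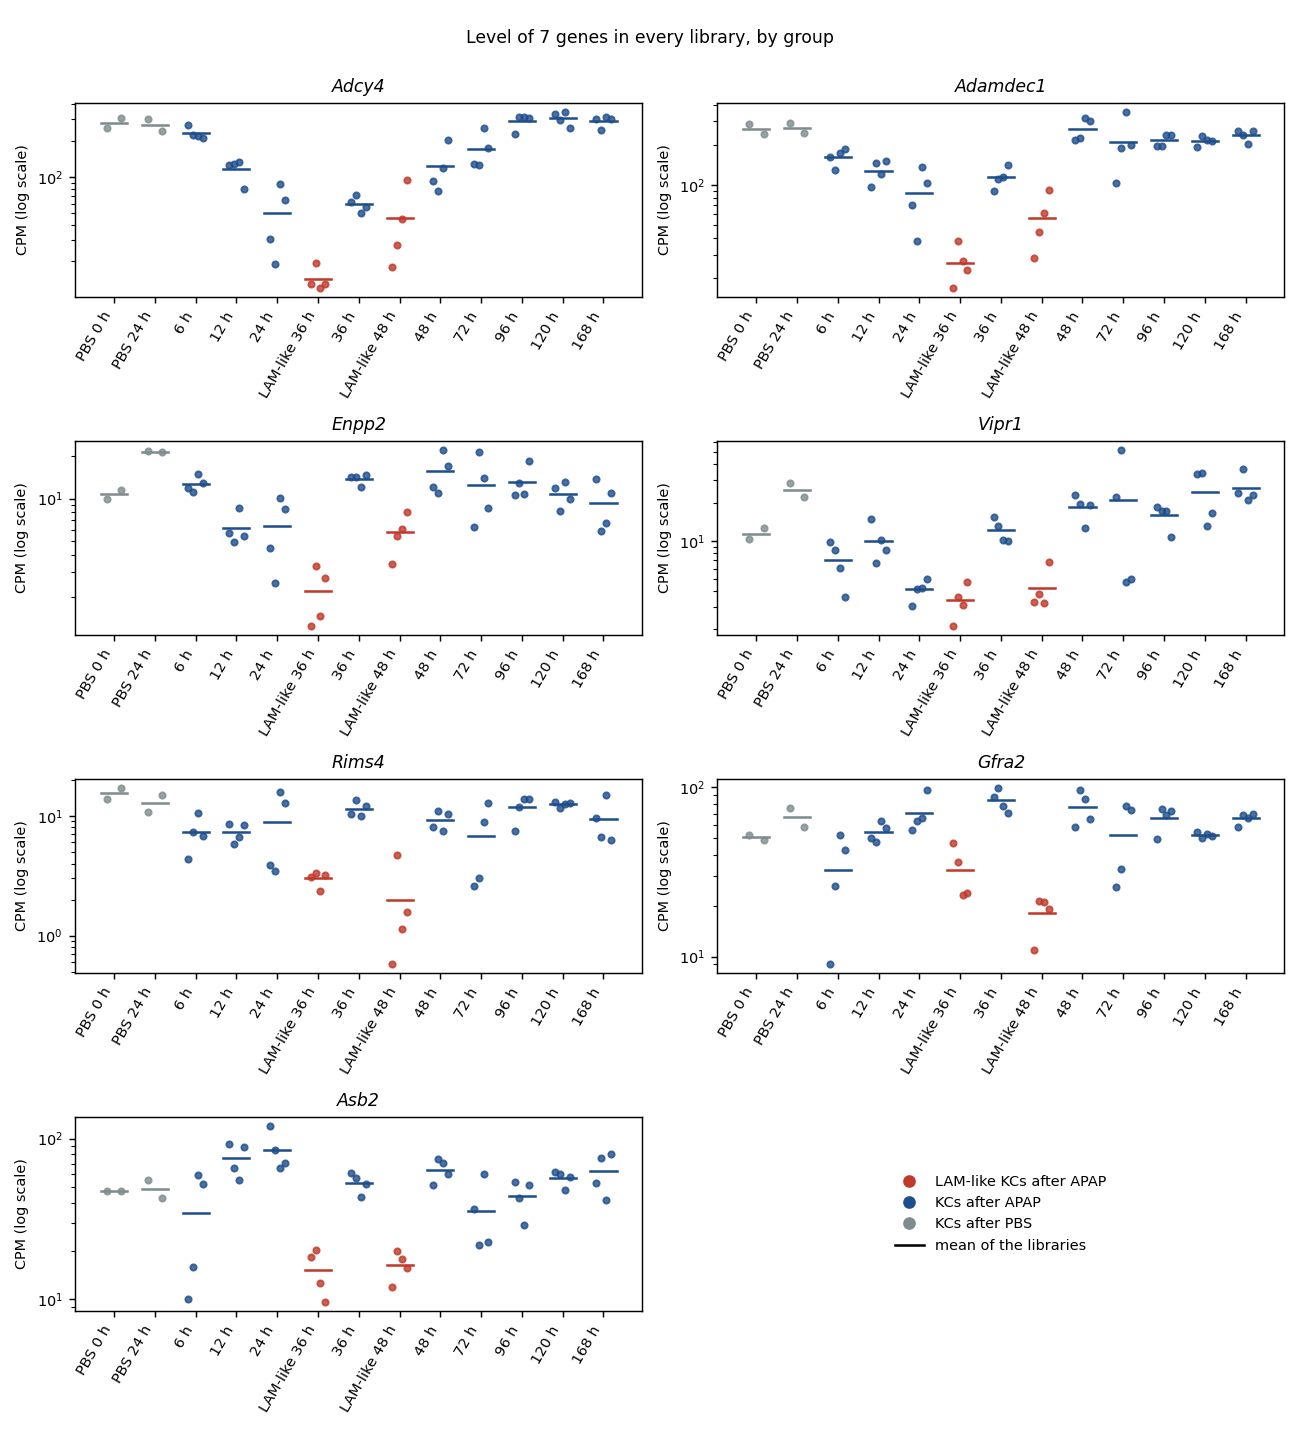
Level of each gene in every library, in CPM on a log axis. Points are libraries and short lines are means. LAM-like KCs (red) stand left of KCs (blue) of the same time, and PBS controls (grey) stand at the low end of the time course. Adcy4 in KCs averaged 50.3 CPM at 24 h and 308.0 CPM at 120 h, whereas Asb2 averaged 85.3 CPM at 24 h, its highest group mean.

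In LAM-like KCs all 7 genes stood below KCs of the same time, which is how they were chosen. At 36 h the libraries of the groups did not overlap for 7 of the 7 genes, and at 48 h for 6 of the 7. Among all genes tested, 5.76% at 36 h and 4.5% at 48 h had every LAM-like library below every KC library, and the edgeR test called 1.11% and 1.37% lower. The members were chosen on these libraries, so nothing is read from their count. In bulk libraries fewer cells of a type and less RNA per cell cannot be told apart. By fold change they took places 343 to 1102 of 17080 genes ordered from the lowest at 36 h and places 550 to 1195 at 48 h.

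Of the secreted enzymes, Adamdec1 was at 16.9, 37.8, 26.8 and 23.1 CPM in LAM-like KCs and 89.4, 110, 115 and 140 CPM in KCs at 36 h. At 48 h it was at 28.4, 44, 61.3 and 91.9 CPM in LAM-like KCs and 215, 224, 315 and 301 CPM in KCs. The mean in LAM-like KCs was thus 23% of KCs at 36 h and 21.4% at 48 h, although both populations had more at 48 h. Enpp2 was at 1.25, 3.32, 1.46 and 2.73 CPM in LAM-like KCs and 14.3, 14.3, 12.1 and 14.7 CPM in KCs at 36 h, a mean share of 15.8%, the lowest of the 7 at either time. At 48 h Enpp2 was at 3.46, 5.43, 6.13 and 8.04 CPM in LAM-like KCs and 12.2, 11, 22.2 and 17 CPM in KCs, a mean share of 37%. The highest LAM-like library of Enpp2 at 48 h lay at 8.04 CPM and the lowest KC library at 11 CPM, so the gap was narrower than at 36 h.

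Of the receptors, Gfra2 was at 46.9, 36.3, 23.1 and 23.9 CPM in LAM-like KCs and 87.2, 99.3, 77.7 and 70.6 CPM in KCs at 36 h. At 48 h it was at 10.9, 21.3, 21 and 19 CPM in LAM-like KCs and 58.1, 95.9, 85.6 and 64.8 CPM in KCs. Its share of the KC mean was 38.9% at 36 h and 23.7% at 48 h, the opposite order in time to Enpp2. Vipr1 was at 2.14, 3.62, 3.11 and 4.71 CPM in LAM-like KCs and 15.5, 13.1, 10.1 and 9.99 CPM in KCs at 36 h. At 48 h it was at 3.3, 3.8, 3.25 and 6.74 CPM in LAM-like KCs and 22.9, 19.6, 12.6 and 19.1 CPM in KCs. The Vipr1 shares were 27.9% and 23% at the 2 times, and the fewest reads behind a LAM-like library were 48.

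Adcy4, the cyclase, was at 12.9, 19.4, 12.1 and 13 CPM in LAM-like KCs and 62, 71.2, 49.9 and 56.3 CPM in KCs at 36 h, a mean share of 24.0%. At 48 h it was at 18, 27.4, 44.7 and 94.5 CPM in LAM-like KCs and 92, 76.2, 119 and 203 CPM in KCs, a mean share of 37.6%. Here the groups overlapped, because LAM-like replicate 4 lay above KC replicates 1 and 2. Set against the KC library of the same number, the LAM-like libraries were at 19.6%, 35.9%, 37.5% and 46.5% for replicates 1 to 4. No label pairs these libraries, and they served to choose the genes, so the overlap stands and these shares are a description.

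Of the intracellular proteins, Asb2 was at 18.4, 20.3, 12.7 and 9.64 CPM in LAM-like KCs and 60.9, 57.1, 43.1 and 51.9 CPM in KCs at 36 h. At 48 h Asb2 was at 11.9, 20, 17.8 and 15.7 CPM in LAM-like KCs and 51.6, 74.3, 70.6 and 59.9 CPM in KCs. Its share was 28.7% and 25.5%, and at 48 h the 4 numbered pairs lay within 23% to 26.9%. Rims4 was at 3.07, 3.35, 2.38 and 3.21 CPM in LAM-like KCs and 10.3, 13.6, 9.94 and 12.1 CPM in KCs at 36 h, a share of 26.2%. At 48 h Rims4 was at 0.583, 4.71, 1.13 and 1.57 CPM in LAM-like KCs and 8.01, 10.9, 7.51 and 10.4 CPM in KCs, a share of 21.7%. The lowest of these LAM-like libraries held 15 reads, and the numbered pairs ranged from 7.28% to 43.2%.

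**Figure D2:**
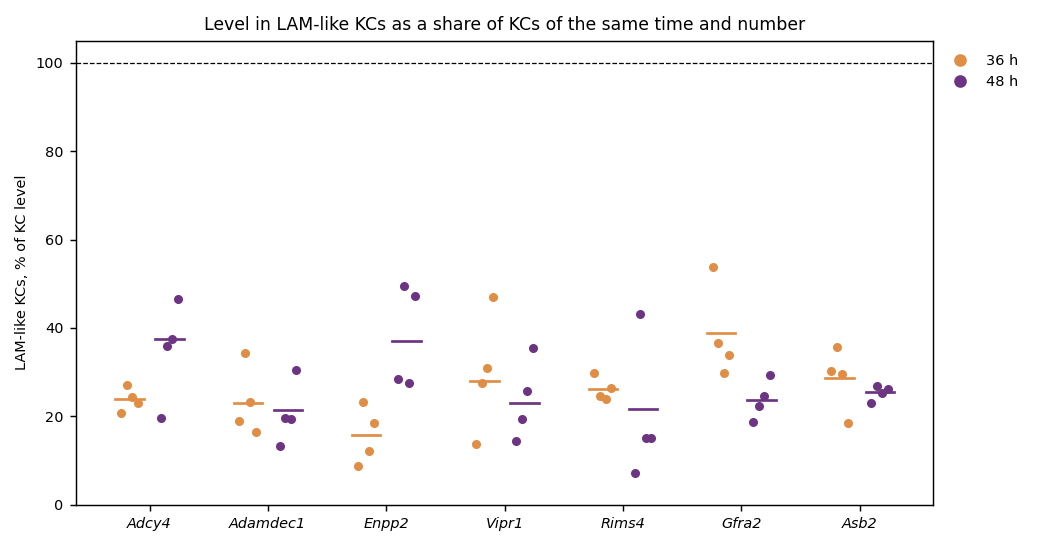
Level in LAM-like KCs as a percentage of KCs of the same time, for the 4 libraries of each number (points) and for the group means (short lines), at 36 h (orange) and 48 h (purple). The dashed line marks the KC level. Every pair lies below it, between 7.28% for Rims4 at 48 h and 53.8% for Gfra2 at 36 h. The labels do not pair these libraries, and the genes were chosen on them.

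Fitted log2 differences of LAM-like KCs from KCs ran from -2.65 ± 0.37 (SE) for Enpp2 to -1.36 ± 0.32 for Gfra2 at 36 h, and from -2.22 ± 0.31 for Adamdec1 to -1.41 ± 0.36 for Adcy4 at 48 h. In each of the 2 sets taken alone all 14 such differences were negative. The genes were chosen on these same libraries, so this is a description and not a repeat. Without LAM-like replicate 4 the Adcy4 difference at 48 h was -2.03, and without KC replicate 4 it was -1.06. The Rims4 difference at 48 h was -2.21 ± 0.46, and -3.08 without LAM-like replicate 2. The hepatocyte marker sum, over 15 genes that were all detected, was 401 to 913 CPM in LAM-like KCs and 958 to 1621 CPM in KCs at 36 h. The 48 h sums were 345 to 1085 CPM in LAM-like KCs and 716 to 2287 CPM in KCs. The sum of 12 stellate cell and fibroblast markers, also all detected, was 117 to 175 CPM in LAM-like KCs and 157 to 171 CPM in KCs at 36 h. The 48 h sums were 147 to 212 CPM in LAM-like KCs and 175 to 312 CPM in KCs. The 14 sinusoidal endothelial markers, all detected, summed to 207 to 447 CPM in LAM-like KCs and 310 to 403 CPM in KCs at 36 h, and to 283 to 956 CPM in LAM-like KCs and 388 to 663 CPM in KCs at 48 h. Other sums were higher in LAM-like KCs. The erythroid and platelet markers, 7 of 8 tested, summed to 235 to 285 CPM in LAM-like KCs and 102 to 122 CPM in KCs at 36 h, and to 117 to 261 CPM in LAM-like KCs and 86.3 to 113 CPM in KCs at 48 h. The cholangiocyte markers tested were 2 of 6, Sox9 and Spp1, and Spp1 is also on the LAM list. They summed to 20.3 to 47.7 CPM in LAM-like KCs and 5.78 to 19.3 CPM in KCs at 48 h. The part of these transcripts in the member differences was not tested.

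Set against PBS, the genes divide by what ordinary KCs did at the same times. Adcy4 in LAM-like KCs at 36 h was at 5.20% of the PBS mean, with KCs at 21.7%, and Adamdec1 in LAM-like KCs was at 9.86%, with KCs at 43%. For these 2 genes both populations were low at 36 h. Gfra2 in LAM-like KCs was at 55.4% and Asb2 at 31.8% of PBS at 36 h, with KCs at 142.0% and 111.0%. For Gfra2 and Asb2 only the LAM-like population stood below the PBS mean at 36 and 48 h. Vipr1, Rims4 and Enpp2 in LAM-like KCs were at 18.5%, 21.2% and 13.5% of PBS at 36 h, with KCs at 66.4%, 81.2% and 85.5%. At 48 h against 36 h the fitted levels in LAM-like KCs were 2.16-fold higher for Adamdec1, 3.21-fold for Adcy4 and 2.62-fold for Enpp2, whereas the fitted log2 difference was -0.85 ± 0.32 for Gfra2 and -0.60 ± 0.46 for Rims4. All of these values come from libraries used to choose the genes and are given without a test.

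The KC libraries at the other times were not used for the choice, and there the 7 genes could be tested against PBS. The comparisons share the same 4 PBS libraries. Adcy4, Adamdec1, Enpp2 and Vipr1 fell in ordinary KCs in the first day, with the most members called at 24 h, and none was called from 72 h on. Gfra2, Asb2 and Rims4 passed the test against PBS at none of the 7 times. The number called lower was 1 of 7 at 6 h, 3 of 7 at 12 h and 4 of 7 at 24 h, where 5.42%, 8.09% and 10.9% of all genes were called lower. No member was called higher, where 9.72%, 12.5% and 16% of all genes were. The median log2 difference of the 7 was -0.71, -0.93 and -1.25 at these times, and that of all genes was 0.04, 0.02 and 0.02.

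Of the members called at 24 h, Adcy4 fell furthest. It was at 270, 224, 219 and 210 CPM in KCs at 6 h, at 126, 129, 133 and 80.3 CPM at 12 h and at 30.7, 19.1, 87.1 and 64.4 CPM at 24 h, against 254, 307, 303 and 241 CPM in PBS libraries. At 6 h the log2 difference of -0.26 ± 0.35 was not called (adjusted p = 0.686). It was 2.36-fold lower at 12 h (log2 -1.24 ± 0.35, adjusted p = 0.0103) and 5.48-fold lower at 24 h (log2 -2.45 ± 0.37, adjusted p = 4.3e-06, edgeR). All 4 libraries at 12 h and all 4 at 24 h lay below every PBS library. In the first set alone the 24 h difference was -3.49, and in the second -1.89, both called (adjusted p = 3.33e-07 and 0.00153). By 72 h Adcy4 was at 127, 126, 254 and 173 CPM, or 61.5% of the PBS mean (adjusted p = 0.326), and the first set alone, against PBS 24 h, gave -1.14 (adjusted p = 0.0056). At 96, 120 and 168 h its means were 106%, 111% and 106% of PBS.

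Adamdec1 followed a like course. It was at 161, 130, 173 and 185 CPM in KCs at 6 h, at 95.5, 146, 121 and 150 CPM at 12 h and at 70.8, 38.2, 135 and 104 CPM at 24 h, against 287, 241, 289 and 243 CPM in PBS libraries. Every library at these 3 times lay below every PBS library. The difference was not called at 6 h (log2 -0.71 ± 0.29, adjusted p = 0.0974), though DESeq2 and a fit with set as a covariate called it (adjusted p = 0.046 and 0.0404). Adamdec1 was 2.07-fold lower at 12 h (log2 -1.05 ± 0.30, adjusted p = 0.00902) and 3.04-fold lower at 24 h (log2 -1.61 ± 0.30, adjusted p = 8.96e-05, edgeR). In the first set alone the 12 h difference was -1.17, which was called. In the second, with 1 library at 12 h, it was -0.81. The 24 h difference was -2.33 in the first set and -1.14 in the second, both called. At 36 h, by the libraries used for choosing, the mean was 43% of PBS, and at 48 h it was 99.5%. At 72 h the 4 libraries spread from 104 to 352 CPM, and from 96 to 168 h the means were between 80.2% and 89.1% of PBS with no call.

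Enpp2 was lower at 12 and 24 h. It was at 5.69, 4.95, 8.61 and 5.43 CPM in KCs at 12 h and 4.47, 2.51, 10.1 and 8.46 CPM at 24 h, against 10, 11.5, 21.7 and 21.4 CPM in PBS libraries. All 4 libraries at 12 h and 3 of 4 at 24 h lay below every PBS library. Enpp2 was 2.47-fold lower at 12 h (log2 -1.31 ± 0.35, adjusted p = 0.00568) and 2.38-fold lower at 24 h (log2 -1.25 ± 0.35, adjusted p = 0.0058, edgeR). Both calls rested on PBS 24 h. With PBS 0 h alone the differences were -0.80 and -0.75 (adjusted p = 0.197 and 0.213). The first set alone gave -1.78 and -2.67 (adjusted p = 0.00886 and 0.00105). The second set gave -0.98 at 12 h, with 1 library at that time, and -0.21 at 24 h (adjusted p = 0.756). At 24 h the first-set libraries, at 4.47 and 2.51 CPM, lay below those of the second set. Enpp2 shares 345 exonic bases with Gm26684 on the other strand, which had 0 to 3 reads in any library, and the strand setting of the counting is not given in the sources used here. Enpp2 was set against marker sums over the 32 KC libraries outside the choice. The r of log2(CPM + 1) was 0.60 with the monocyte and neutrophil sum and 0.50 with the hepatocyte sum. These sums share the gene Hp, so they are not separate measures. With the Kupffer cell sum the r was -0.32. The monocyte and neutrophil sum was 312 to 382 CPM in KCs at 12 h, 235 to 437 CPM in KCs at 24 h and 393 to 562 CPM over the PBS libraries, and its part in the Enpp2 change was not tested.

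Vipr1 passed the test at 6 and 24 h. It was at 9.86, 8.48, 6.1 and 3.63 CPM in KCs at 6 h, at 14.7, 6.73, 10.1 and 8.4 CPM at 12 h and at 3.07, 4.19, 4.24 and 5.02 CPM at 24 h, against 10.4, 12.5, 28.4 and 22.1 CPM in PBS libraries. The 24 h libraries lay close together and below every PBS library. Vipr1 was 4.11-fold lower at 24 h (log2 -2.04 ± 0.46, adjusted p = 0.000821), with -2.83 in the first set and -1.30 in the second, both called. The call at 6 h was slight (log2 -1.28 ± 0.45, adjusted p = 0.0455). It was lost with PBS 0 h alone (-0.71, adjusted p = 0.443) and on leaving out any 1 of the 8 libraries compared, with differences of -1.48 to -1.06, though each set alone kept it, at -1.49 and -1.23. At 12 h the difference was -0.77 ± 0.44 (adjusted p = 0.232).

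The stellate and hepatocyte marker sums were lower at 24 h, as Vipr1 was, but the stellate sum was not at 6 h. The stellate cell and fibroblast marker sum was 157 to 207 CPM in KCs at 24 h and 248 to 343 CPM over the PBS libraries. It was 262 to 451 CPM in KCs at 6 h and 245 to 417 CPM at 12 h. The hepatocyte marker sum was 917 to 1287 CPM in KCs at 24 h and 1794 to 3605 CPM over the PBS libraries. It was 1367 to 1735 CPM in KCs at 6 h and 874 to 2939 CPM at 12 h. At 72 h Vipr1 was at 22, 51.9, 4.76 and 5.01 CPM in replicates 1 to 4. The same 4 libraries had stellate sums of 619, 1291, 262 and 288 CPM and hepatocyte sums of 5701, 18772, 1283 and 1258 CPM. Over 32 KC libraries outside the choice, the r of log2(CPM + 1) of Vipr1 was 0.75 with the stellate sum, 0.73 with the hepatocyte sum and -0.22 with the Kupffer cell sum. Without replicate 2 of 72 h the difference of Vipr1 from PBS at 72 h was -0.70, against 0.30 ± 0.43 with it, and neither was called. For Adcy4 and Adamdec1 the highest such r was 0.72 and 0.67, with the sinusoidal endothelial sum. That sum was 386 to 569 CPM in KCs at 12 h, 220 to 387 CPM at 24 h and 382 to 592 CPM over PBS libraries. With the monocyte and neutrophil sum the r was -0.72 for Asb2 and -0.52 for Gfra2. For Rims4 the r lay between -0.36, with the stellate sum, and 0.28, with the Kupffer cell sum. These r values are descriptions over libraries that share groups, and the part of other cells in the changes was not tested.

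Gfra2 and Asb2 passed the test against PBS at none of the first 3 times. Gfra2 was at 9.07, 26.1, 52.4 and 42.5 CPM in KCs at 6 h, at 50.2, 47.5, 63.7 and 57.5 CPM at 12 h and at 56, 63.3, 66.3 and 96.8 CPM at 24 h, against 52.2, 49.1, 75.5 and 58.3 CPM in PBS libraries. At 6 h its difference was -0.84 ± 0.31 (adjusted p = 0.0651), which DESeq2 and a fit with set as a covariate called (adjusted p = 0.0234 and 0.0392), and the first set alone gave -1.94 (adjusted p = 0.00183). The second set alone gave -0.09 at 6 h, so the low values belonged to replicates 1 and 2. Asb2 was at 10.1, 15.9, 59.2 and 52.5 CPM in KCs at 6 h, at 92, 65.6, 55.6 and 88.4 CPM at 12 h and at 120, 85.4, 65.5 and 70.7 CPM at 24 h, against 46.9, 47.5, 54.9 and 42.9 CPM in PBS libraries. All 4 libraries at 12 h and at 24 h lay above every PBS library, but the differences, 0.65 ± 0.34 and 0.83 ± 0.34, were not called (adjusted p = 0.189 and 0.0708). At 6 h Asb2 again split by set, with -1.93 in the first (adjusted p = 0.000319) and 0.25 in the second (adjusted p = 0.763).

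Rims4 was at 4.37, 7.33, 10.6 and 6.84 CPM in KCs at 6 h, at 8.56, 5.81, 6.67 and 8.4 CPM at 12 h and at 3.9, 3.46, 15.7 and 12.7 CPM at 24 h, against 13.7, 17.1, 10.8 and 14.9 CPM in PBS libraries. All libraries at 6 and 12 h lay below every PBS library, and at 24 h only replicates 1 and 2 did. The log2 differences of -0.95 ± 0.44, -0.93 ± 0.44 and -0.65 ± 0.43 were not called (adjusted p = 0.143, 0.131 and 0.284). In the first set alone the 24 h difference was -1.84 (adjusted p = 0.0161) and in the second -0.12.

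**Figure D3:**
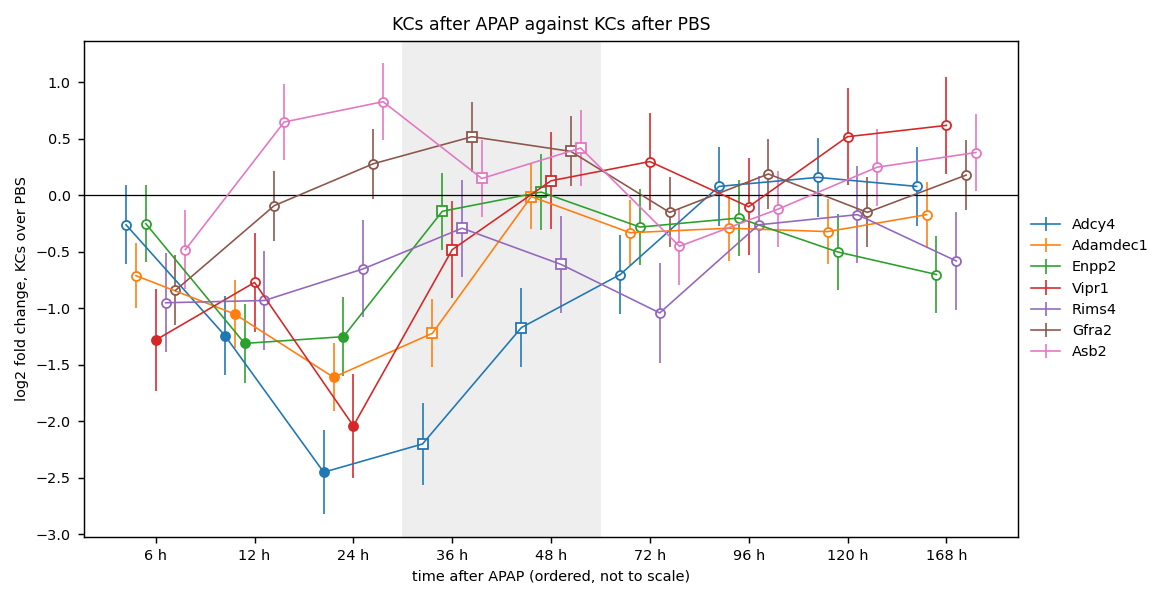
Log2 fold change of KCs after APAP over PBS at each time, with bars of 1 SE. Filled symbols passed the test, open circles did not, and open squares on grey, at 36 and 48 h, were not tested because those libraries served to choose the genes. Adcy4 reaches -2.45 at 24 h, while Asb2 reaches 0.83 at the same time.

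From 72 h no difference of a member from PBS passed the test. None of the 7 was called at 72, 96, 120 or 168 h by edgeR or by DESeq2, where edgeR called 0.427% of all genes lower and 1.51% higher at 72 h, 0.0351% and 0.123% at 96 h, 0.0234% and 0.0995% at 120 h, and 0.0117% and 0.0234% at 168 h. At an unadjusted p below 0.05 there was 1 member at 72 h (Rims4), 0 at 96 and 120 h and 1 at 168 h (Enpp2). Rims4 at 72 h was at 2.61, 3, 8.83 and 12.9 CPM (log2 -1.04 ± 0.44, adjusted p = 0.231). Replicates 1 and 2 were again the low ones, and the first set alone gave -2.23 (adjusted p = 0.0179). Enpp2 at 168 h was at 13.9, 5.93, 6.68 and 11 CPM, or 58.0% of the PBS mean (log2 -0.70 ± 0.34, adjusted p = 0.99). Gfra2 at 72 h was at 25.8, 33.1, 77.2 and 73.2 CPM, split in the same way, with -1.22 in the first set (adjusted p = 0.0495) and 0.57 in the second (adjusted p = 0.108).

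Changes between times within KCs were also tested, in 2 comparisons added after the data were seen. From 6 to 24 h, 3 of 7 members fell and 2 rose, where 11.3% of all genes fell and 13% rose. Adcy4 was 4.59-fold lower at 24 h than at 6 h (log2 -2.20 ± 0.37, adjusted p = 2.32e-05). Adamdec1 changed by -0.90 ± 0.29 (adjusted p = 0.022) and Enpp2 by -1.0 ± 0.35 (adjusted p = 0.0299), and both calls were lost in the second set alone (-0.58 and -0.60, adjusted p = 0.122 and 0.324) and without 24 h replicate 1 or 2. Without these the difference was -0.81 and -0.65 for Adamdec1 (adjusted p = 0.0696 and 0.117) and -0.86 and -0.73 for Enpp2 (adjusted p = 0.0993 and 0.145). The Enpp2 call was also lost without 6 h replicate 3 (-0.91, adjusted p = 0.0678). Gfra2 was 2.17-fold higher at 24 h than at 6 h (log2 1.12 ± 0.32, adjusted p = 0.0076), with 1.74 in the first set and 0.78 in the second, both called. Asb2 was 2.47-fold higher (log2 1.30 ± 0.35, adjusted p = 0.00477), with 2.96 in the first set and 0.28 in the second (adjusted p = 0.728). From 24 to 168 h, 3 of 7 members rose and none fell, where 12.2% of all genes rose and 16.4% fell. Vipr1 was 6.29-fold higher (log2 2.65 ± 0.47, adjusted p = 2.88e-05), Adcy4 5.81-fold (log2 2.54 ± 0.37, adjusted p = 1.92e-06) and Adamdec1 2.71-fold (log2 1.44 ± 0.30, adjusted p = 0.000271), and each was called in both sets. Enpp2 changed by 0.55 ± 0.35 over the same span (adjusted p = 0.242).

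Ordered over the 13 groups, the LAM-like groups held the lowest 2 means of Adamdec1, Asb2, Rims4, Adcy4 and Enpp2, and 2 of the lowest 3 of Vipr1. Gfra2 was lowest in LAM-like KCs at 48 h, at 18.1 CPM, followed by LAM-like KCs at 36 h and KCs at 6 h, which both averaged 32.5 CPM. For Vipr1 the 24 h KCs, at 4.13 ± 0.80 CPM, lay between LAM-like KCs at 48 h, at 4.27 ± 1.66 CPM, and at 36 h, at 3.39 ± 1.07 CPM (SD, n = 4), less apart than their spread. For Adcy4 the means of LAM-like KCs at 48 h, KCs at 24 h and KCs at 36 h were 46.2, 50.3 and 59.9 CPM and overlapped. Most neighbouring groups in each order overlapped and differed by less than the larger SD. For Adcy4 the exceptions beyond that SD were the steps between KCs at 6 and 72 h and between KCs at 12 and 36 h. For Adamdec1 they were those between KCs at 6 and 12 h and between the LAM-like groups. For Gfra2 and Enpp2 the last step, between the LAM-like groups, exceeded the SD without overlap, as did, with overlap, a step higher in each order. For Vipr1 the step from KCs at 96 h down to 36 h and that from KCs at 6 h down to LAM-like KCs at 48 h did so, both with overlap. For Asb2 and Rims4 no step did.

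The 7 genes were not alike over the 32 KC libraries outside the choice. Adamdec1 and Adcy4 were most alike, with a Pearson r of log2(CPM + 1) of 0.87, and Enpp2 had r of 0.70 with Adamdec1 and 0.66 with Adcy4. Gfra2 and Asb2 had an r of 0.64 with each other. Asb2 had negative r with Adcy4, at -0.39, and with Enpp2, at -0.41. Vipr1 had 0.54 with Adcy4 and 0.45 with Adamdec1, and Rims4 had 0.53 with Adamdec1 and 0.50 with Gfra2.

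**Figure D4:**
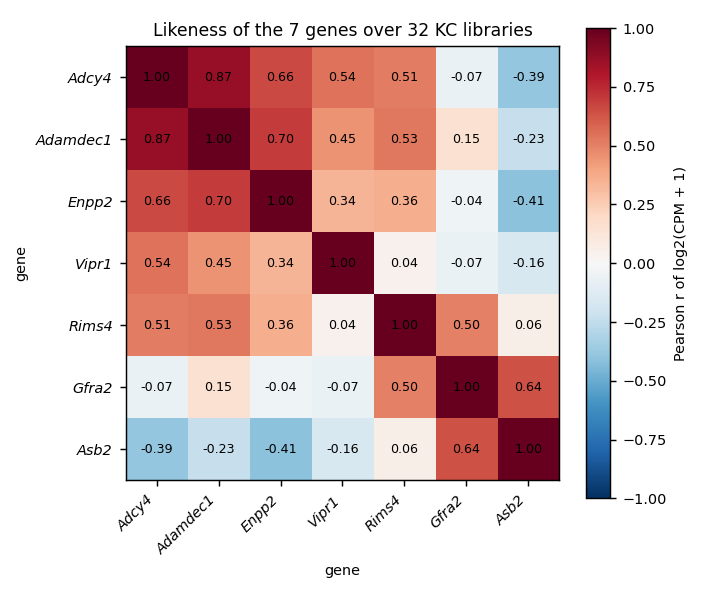
Pearson r of log2(CPM + 1) between the 7 genes over the 32 KC libraries that did not serve to choose them. Red is positive and blue negative. Adcy4 and Adamdec1 have 0.87, Gfra2 and Asb2 0.64, and Asb2 and Enpp2 -0.41.

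Of the 8170 genes that averaged 10 CPM or more, the most like Adcy4 were C6, a terminal complement component, with r of 0.957, Ifngr1, a chain of the interferon gamma receptor, with 0.956, and Agmo, which cleaves ether lipids, with 0.956. C6 was at 421 ± 216 CPM in KCs at 24 h (SD, n = 4) and 1307 ± 93.4 CPM in PBS libraries (n = 4). The most like Adamdec1 were Pld4, a nuclease of endosomes, with 0.91, the Kupffer cell lectin Clec4f with 0.892 and Csf1r, the receptor for the macrophage growth factor, with 0.878. Clec4f was at 6949 ± 2604 CPM in KCs at 24 h and 14796 ± 1319 CPM in PBS libraries. With the sum of all 14 Kupffer cell markers, however, Adamdec1 had an r of 0.02, and that sum was 38045 to 45258 CPM in KCs at 24 h and 39391 to 45824 CPM over the PBS libraries. For Gfra2 they were Abcg3, Rnpep and the actin crosslinker Actn1, with 0.881, 0.869 and 0.867, and for Asb2 the B cell and macrophage receptor Cd180, Ms4a7 and Fam213b, with 0.828, 0.789 and 0.786.

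Vipr1 was most like Colec11, a lectin of stellate cells and a gene of the stellate list, with 0.877, and the carboxylesterases Ces3a and Ces3b, abundant in hepatocytes, with 0.873 and 0.87. Ces3a was at 12.6 ± 4.78 CPM in KCs at 24 h and 80.3 ± 35.2 CPM in PBS libraries. Rims4 was most like Pilrb2, the cyclooxygenase gene Ptgs1 and Pilrb1, with 0.817, 0.796 and 0.781. Enpp2 had the lowest best matches, Vcpip1, Sertad3 and the chromatin remodeller Smarca2, with 0.749, 0.742 and 0.726. These r values order genes over libraries that share groups and depth and are given as a description.

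The partners of the 7 genes were then read in LAM-like KCs against KCs, from 8 lists of 150 genes in all, of which 124 were tested. At 36 h 3 were called higher and 5 lower, and at 48 h 1 higher and 4 lower, where 0.773% and 1.11% of all genes at 36 h and 1.14% and 1.37% at 48 h were called higher and lower. Their median log2 difference was 0.00 at 36 h and -0.03 at 48 h, and that of all genes was -0.01 at both times. At an unadjusted p below 0.05 there were 33 and 24 of the 124.

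For the secreted enzymes, relatives moved in both directions. Of 15 ADAM proteases and their regulators tested, Adam15, a membrane protease, was higher at 36 h, at 11.6 ± 3.36 CPM in LAM-like KCs and 5.56 ± 1.35 CPM in KCs (log2 1.05 ± 0.29, adjusted p = 0.0422), with 1.23 and 0.81 in the sets alone, neither called, and lost under 9 of 16 alternatives. Timp2, an inhibitor of metalloproteases, was at 270 ± 15.5 CPM in LAM-like KCs and 196 ± 13.3 CPM in KCs (log2 0.46 ± 0.13, adjusted p = 0.0457), a call lost under 11 of 16 alternatives. None of the ADAM list was called at 48 h, with 4 at an unadjusted p below 0.05 and 2 by DESeq2. Adam7 and Adam28, the genes on either side of Adamdec1 on chromosome 14, were too low to test, with at most 0 and 13 reads in a library.

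Next came 19 tested genes, on a list of lysophospholipid genes and relatives of autotaxin. Enpp5 and Enpp4 were lower at 36 h and Plpp3 at 48 h, and none was higher. Enpp4 and Enpp5 are listed as relatives of autotaxin, with no action on lysophospholipids implied. Enpp5, a member of the autotaxin family, was at 14.9 ± 2.38 CPM in LAM-like KCs and 41.9 ± 3.53 CPM in KCs at 36 h (log2 -1.49 ± 0.25, adjusted p = 0.000282), and every alternative run kept that call. Enpp4 was at 24.5 ± 5.09 CPM in LAM-like KCs and 51.8 ± 11.3 CPM in KCs (log2 -1.08 ± 0.23, adjusted p = 0.00385; -0.90 with adjusted p = 0.109 in the first set alone). Both were also lower in KCs at 24 h than after PBS, Enpp5 at 29.5 ± 8.49 CPM in KCs at 24 h against 81.2 ± 13.1 CPM after PBS (adjusted p = 2.78e-05) and Enpp4 at 28.7 ± 11.7 CPM in KCs at 24 h against 69.9 ± 9.48 CPM after PBS (adjusted p = 4.13e-05). Plpp3, a phosphatase that breaks down lysophosphatidic acid, was at 53.4 ± 11.3 CPM in LAM-like KCs and 79.2 ± 4.37 CPM in KCs at 48 h (log2 -0.57 ± 0.16, adjusted p = 0.043), with -0.62 and -0.52 in the sets, neither called, and lost under 10 of 16 alternatives. Enpp1 was at 55.8 ± 1.24 CPM in LAM-like KCs and 43.3 ± 2.11 CPM in KCs at 36 h and was not called (adjusted p = 0.247). Lpar6, a receptor for lysophosphatidic acid, was at 36.4 ± 2.12 CPM in LAM-like KCs and 31.8 ± 7.72 CPM in KCs at 36 h (adjusted p = 0.789).

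For the receptors, Ret, Nrtn, Vip and Vipr2 were at or near 0 reads. Ret, the signalling partner of Gfra2 in neurons, had 0 reads in all 48 libraries, and Nrtn, its ligand, had at most 8 reads in a library. Gfra1, the nearest relative measured, was at 0.765 ± 0.233 CPM in LAM-like KCs and 1.74 ± 0.886 CPM in KCs at 36 h (adjusted p = 0.649). Of 5 genes tested in the GDNF family list, Sdc3, a membrane proteoglycan that binds GDNF, was lower at 48 h, at 2360 ± 184 CPM in LAM-like KCs and 3440 ± 226 CPM in KCs (log2 -0.54 ± 0.13, adjusted p = 0.019), with -0.48 (adjusted p = 0.0582) in the first set, and lost under 6 of 16 alternatives. At 36 h none of this list was called, with 1 at an unadjusted p below 0.05 and 1 by DESeq2. Vip had 0 reads, and Vipr2, the other VIP receptor, had at most 6 in a library. Ramp1, which escorts receptors of the same class to the membrane, was lower at 36 h (log2 -3.29 ± 0.68, adjusted p = 0.00343), at 0.165 ± 0.124 CPM in LAM-like KCs against 1.65 ± 0.527 CPM in KCs, both low levels. In each set alone that call was lost (adjusted p = 0.0501 and 0.0533). None of this list was called at 48 h, with 2 at an unadjusted p below 0.05 and 0 by DESeq2.

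Among 17 other makers and breakers of cAMP tested, beside Adcy4, none was called at 36 or 48 h, with 3 at an unadjusted p below 0.05 each time and 0 and 1 by DESeq2. Adcy7, the most abundant other cyclase of the named partners, was at 183 ± 38.6 CPM in LAM-like KCs and 139 ± 16.3 CPM in KCs at 36 h (log2 0.40 ± 0.12, adjusted p = 0.0806), and Adcy9 was at 2.58 ± 0.676 CPM in LAM-like KCs and 2.15 ± 0.876 CPM in KCs (adjusted p = 0.832). Gnas, which encodes the Gs alpha subunit, was at 10.6 ± 2.48 CPM in LAM-like KCs and 12.3 ± 2.82 CPM in KCs (adjusted p = 0.692). Of 23 targets of cAMP and Gs-coupled receptors, Prkacb, a catalytic subunit of protein kinase A, was higher at 36 h, at 216 ± 20.9 CPM in LAM-like KCs and 153 ± 15.9 CPM in KCs (log2 0.49 ± 0.11, adjusted p = 0.00548), and at 48 h (log2 0.48 ± 0.11, adjusted p = 0.00824). The second set alone gave 0.28 at 36 h (adjusted p = 0.376) and the first 0.42 at 48 h (adjusted p = 0.111).

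For the intracellular proteins, none of 21 genes of the Asb2 ubiquitin ligase was called at 36 or 48 h, with 2 at an unadjusted p below 0.05 each time and 0 by DESeq2. Cul5, the ligase scaffold, was at 72.6 ± 3.51 CPM in LAM-like KCs and 57.4 ± 12.1 CPM in KCs at 36 h (adjusted p = 0.339). Flna, the filamin that Asb2 marks for breakdown, was at 1130 ± 144 CPM in LAM-like KCs and 786 ± 57.4 CPM in KCs (log2 0.52 ± 0.19, adjusted p = 0.209), with no overlap of libraries, and at 565 ± 79.9 CPM in LAM-like KCs and 597 ± 169 CPM in KCs at 48 h. In KCs at 24 h Flna rose to 1347 ± 482 CPM, against 495 ± 67.3 CPM after PBS (log2 1.45 ± 0.20, adjusted p = 7.66e-07). Of 18 genes of vesicle release, Stx11, a syntaxin of immune cells, was lower at 36 h, at 27.7 ± 2.58 CPM in LAM-like KCs and 46.1 ± 2.51 CPM in KCs (log2 -0.73 ± 0.17, adjusted p = 0.0111), and at 48 h, at 30.3 ± 1.60 CPM in LAM-like KCs and 47.7 ± 4.27 CPM in KCs (log2 -0.65 ± 0.17, adjusted p = 0.0263; -0.59 with adjusted p = 0.0898 in the first set). The 48 h call was lost under 8 of 16 alternatives. Rims3, the closest relative of Rims4 measured, was at 48.3 ± 11.1 CPM in LAM-like KCs and 59.4 ± 7.41 CPM in KCs at 36 h (adjusted p = 0.575), while Rims1 had 0 reads. Rab27a, a vesicle GTPase, was at 5.99 ± 0.891 CPM in LAM-like KCs and 5.74 ± 1.42 CPM in KCs at 36 h (adjusted p = 0.982).

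In KCs at 24 h against PBS, 20 of the 124 partners were called higher and 14 lower, where 16% and 10.9% of all genes were. DESeq2 called 35. The list of lysophospholipid genes and autotaxin relatives had 6 higher and 4 lower of 19. The Asb2 ligase list had 5 higher and 2 lower of 21, and the vesicle release list 1 higher and 3 lower of 18. The other lists had at most 3 calls in either direction.

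Genes beside the members on the chromosome were read in the same comparisons. Ripk3, a kinase of cell death next to Adcy4 on chromosome 14, was lower in LAM-like KCs at 36 h, at 82.0 ± 7.02 CPM against 128.0 ± 11 CPM in KCs (log2 -0.65 ± 0.13, adjusted p = 0.00187), but not called at 48 h (adjusted p = 0.33) or in KCs at 24 h against PBS (log2 0.29 ± 0.13, adjusted p = 0.0815). Taf2, next to Enpp2 on chromosome 15, was higher in KCs at 24 h, at 40.1 ± 5.49 CPM against 23.9 ± 2.53 CPM after PBS (adjusted p = 0.000693), where Enpp2 was lower. Dok2 beside Gfra2, Sec22c beside Vipr1, Otub2 beside Asb2 and Ywhab beside Rims4 were called in none of the 3 comparisons. On mm10 with GENCODE M21 annotation, Adamdec1 lies at chr14:68563380-68582095, Gfra2 at chr14:70890120-70979838, Adcy4 at chr14:55769057-55784095, Asb2 at chr12:103321142-103356001, Vipr1 at chr9:121642716-121672954, Rims4 at chr2:163859751-163918683 and Enpp2 at chr15:54838901-54952892. All 7 are protein-coding, and 7 of 7 symbols in the files matched the annotation.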

How the data were processed

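The authors deposited gene counts, whole numbers of reads per gene for 48 libraries, on build mm10. The submitters' processing notes name featureCounts 2.0.0, HISAT2 2.2.0, FastQC 0.11.9 and SAMtools 1.10, and the strand setting is not given in the sources used here. Counts were tested with edgeR 4.0.16 in R 4.3.3 (TMM scaling, filterByExpr, robust quasi-likelihood) in 1 fit over 13 groups, with PBS as the mean of both PBS groups and a Benjamini-Hochberg threshold of 0.05 over 17080 genes. DESeq2 1.42.0 was an alternative. CPM uses TMM-scaled library sizes. The members, and the lists of related and marker genes, were chosen with earlier results of these data known. Named related genes are a fixed partner of each member and up to 3 genes called in LAM-like KCs per list and direction, of which 1 is not reported here. The 3 genes most like each member were named by Pearson r. Same-numbered LAM-like and KC libraries had residual r of 0.126 to 0.191 at 36 h and 0.189 to 0.35 at 48 h. Other numbers gave -0.156 to 0.126 and -0.241 to 0.163, and the highest of these were between libraries of the same set. No label pairs the libraries, and the part of the set in these values was not tested. Single-cell and spatial data of the series were not analysed here.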

Additional observations from a re-analysis of the deposited data

Results flagged for a closer look

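Of 77 groups of 4 libraries tested for a library far from the others, 7 held one, where chance gives about 1 in 20. Adcy4 had 4 of these. It was at 19.4 CPM in LAM-like KCs at 36 h replicate 2, with the other 3 at 12.1 to 13 CPM. It was at 80.3 CPM in KCs at 12 h replicate 4, with the others at 126 to 133 CPM. It was at 228 CPM in KCs at 96 h replicate 1, with the others at 310 to 315 CPM, and at 245 CPM in KCs at 168 h replicate 2, with the others at 304 to 315 CPM. Vipr1 had 2, at 6.74 CPM in LAM-like KCs at 48 h replicate 4, with the others at 3.25 to 3.8 CPM, and at 10.7 CPM in KCs at 96 h replicate 4, with the others at 17.3 to 18.4 CPM. Enpp2 was at 12.1 CPM in KCs at 36 h replicate 3, with the others at 14.3 to 14.7 CPM.

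The change against PBS differed between 24 h and 6 h for 5 genes, by the edgeR test of that difference over all genes. It was -2.20 log2 units for Adcy4 (adjusted p = 2.32e-05), -1.0 for Enpp2 (adjusted p = 0.0299), -0.90 for Adamdec1 (adjusted p = 0.022), 1.12 for Gfra2 (adjusted p = 0.0076) and 1.30 for Asb2 (adjusted p = 0.00477). The PBS libraries cancel in this difference, so it is the same test of KCs at 24 h against KCs at 6 h reported above. That test called 11.3% of all genes lower and 13% higher. In the second set alone the calls of Adamdec1, Enpp2 and Asb2 were lost (adjusted p = 0.122, 0.324 and 0.728).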

How the results depend on the processing

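With 4 libraries a group, and 2 in each PBS group, small changes of the lower genes were not detectable. The calls of Adamdec1, Adcy4 and Enpp2 at 12 h, and of these and Vipr1 at 24 h, held when any 1 of the 8 libraries compared was left out. The cause of the shifts below was not tested. Members called at 6 h, 1 as reported, numbered 2 with RLE scaling, 0 with no filter on low counts, 2 with the replicate block, 3 with a block by header number, 0 with PBS 0 h alone, 3 in set 1 only, 3 with set as covariate and 3 with DESeq2. In set 2 only, 2 members were called between 24 and 6 h (5 as reported). KCs at 12 h had 1 library in that set, so no count is given for them there. In set 1 only, 3 were called at 72 h (0 as reported). Related genes called in LAM-like KCs numbered 5 at 36 h in set 1 only (8 as reported), and at 48 h 3 with no filter, 0 in set 1 only and 9 with DESeq2 (5 as reported). Leaving out 1 library gave 0 to 1 members at 6 h, 3 to 5 between 24 and 6 h, and 4 to 9 related genes at 36 h and 0 to 4 at 48 h. Calls over all genes on leaving out 1 library ranged from 1489 to 2706 at 6 h (2586 as reported), 2268 to 3583 at 12 h (3520), 60 to 562 at 72 h (331), 179 to 314 in LAM-like KCs at 36 h (322) and 149 to 561 at 48 h (429). They were lowest without a PBS 24 h library at 6 and 72 h (replicates 1 and 2), without LAM-like replicate 1 at 36 h and without KC replicate 4 at 48 h. For KCs against PBS the numbers are shared by 2 libraries only, so the block there pairs numbers and not animals. Under it the Vipr1 call at 6 h was lost (-1.07, adjusted p = 0.0683) and Adamdec1 (-0.92, adjusted p = 0.00962) and Gfra2 (-1.05, adjusted p = 0.0164) were called at 6 h. For LAM-like KCs the block added Timp2 at 48 h, called 9 related genes at 36 h and 7 at 48 h, and lost none of the calls reported.

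Some log2 differences, none called as reported, changed sign. With PBS 0 h alone Gfra2 was 0.11 at 12 h, 0.05 at 72 h and 0.05 at 120 h, Vipr1 0.48 at 96 h, and Enpp2 0.25 at 6 h, 0.22 at 72 h, 0.30 at 96 h and 0.00 at 120 h. With PBS 24 h alone Gfra2 was -0.01 at 96 h and -0.02 at 168 h, and Vipr1 -0.27 at 72 h and -0.05 at 120 h. In set 2 only Adamdec1 was 0.06 at 72 h, Gfra2 0.18 at 12 h, 0.57 at 72 h and 0.05 at 120 h, Asb2 0.25 at 6 h, Vipr1 -1.22 at 72 h and 0.29 at 96 h, and Enpp2 0.39 at 6 h, 0.07 at 72 h, 0.44 at 96 h and 0.10 at 120 h. Between 168 and 24 h in that set Rims4 was -0.41 and Enpp2 -0.07. In LAM-like KCs against KCs that set gave -0.02 for Cul5, 0.12 for Flna and 0.12 for Gfra1 at 48 h, and -0.14 for Lpar6 and 0.00 for Rab27a at 36 h. In set 1 only Gfra2 was -0.20 at 24 h, -0.10 at 96 h, -0.07 at 168 h and 0.13 between 168 and 24 h, Rims4 -0.68 between 24 and 6 h, and at 48 h in LAM-like KCs Gnas was -0.26 and Rab27a -0.20. With the replicate block Vipr1 was 0.16 at 96 h, and Adcy4 -0.10 at 96 h, -0.01 at 120 h and -0.10 at 168 h. With the block by header number, PBS 24 h against 0 h gave 0.10 for Rims4 and 0.32 for Adcy4. Gnas at 48 h was -0.01 with RLE scaling, -0.00 with no filter and -0.01 with DESeq2.

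Leaving out 1 library, the sign changed within -0.10 to 0.17 for Adamdec1, -0.12 to 0.24 for Asb2 and -0.21 to 0.14 for Adcy4 between PBS groups. Against PBS the ranges were -0.19 to 0.00 at 12 h and -0.40 to 0.07 at 72 h for Gfra2, -0.23 to 0.04 at 96 h for Asb2, -0.70 to 0.63 at 72 h and -0.17 to 0.05 at 96 h for Vipr1, and -0.01 to 0.16 at 168 h for Adcy4. Rims4 ranged from -0.12 to 0.56 between 24 and 6 h and from -0.25 to 0.49 between 168 and 24 h, and Gfra2 from -0.20 to 0.09 between 168 and 24 h. In LAM-like KCs against KCs the ranges at 48 h were -0.23 to 0.07 for Flna, -1.34 to 0.27 for Gfra1, -0.22 to 0.09 for Gnas, -0.17 to 0.18 for Lpar6 and -0.04 to 0.21 for Rab27a, and at 36 h -0.04 to 0.22 for Rab27a.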
